A study of Sus scrofa with 2 samples.

Results

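The nuclei described here are T and natural killer (NK) lymphocytes recovered from pig myocardium, 931 of 31664 nuclei that passed quality filters in 2 single-nucleus RNA sequencing libraries. A nucleus was taken as a lymphocyte when 7 genes (SKAP1, STAT4, SCML4, IKZF3, CAMK4, KLRK1 and GNLY) together gave at least 5 unique molecular identifiers (UMIs, 1 for each captured transcript) and at least 0.15% of its UMIs. It also had to stay under 1% of UMIs from the cardiomyocyte genes RYR2 and CTNNA3, and under 0.15% from each of an endothelial, a macrophage and a fibroblast gene group. TG is 1 library from a triple-transgenic Bama pig carrying PNPLA3 I148M, GIPRdn and hIAPP, and WT is 1 library from a wild-type Bama pig, a miniature breed. Both groups had been kept on a high-fat, high-sucrose diet for 12 months, and in both the tissue was frozen left ventricular free wall, from which nuclei were released and captured in droplets. PNPLA3 I148M is a variant of a lipid droplet enzyme linked to fatty liver, GIPRdn a dominant-negative receptor for the incretin GIP, and hIAPP human islet amyloid polypeptide. The labels give no promoter for the transgenes, no sex and no number of animals per library. Each genotype rests on a single library, so genotype and library cannot be told apart, and no test was made between TG and WT. Every interval below is a 95% interval that covers counting error only.

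T cells recognise peptides through a receptor whose signal runs through the CD3 chains, the kinases LCK and ZAP70 and the adaptors LCP2 and SKAP1. NK cells carry no such receptor, read stress ligands and missing self through receptors such as KLRK1 and NCR1, and kill with perforin, granzymes and granulysin, which cytotoxic T cells also hold. Both are a minority of the immune cells of healthy heart muscle, where macrophages prevail. Because cytotoxic T cells and NK cells share much of their programme, single genes separate them poorly, more so in nuclei, which hold few UMIs.

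The lymphocytes were 384 of 14939 nuclei in TG, or 2.57% (2.32 to 2.84), and 547 of 16725 nuclei in WT, or 3.27% (3.01 to 3.55). The TG share was 0.786 times that of WT (0.688 to 0.897). Nuclei gated on the macrophage genes CD163 and F13A1 were also a smaller share in TG, at 4.55%, than in WT, at 7.25%, a ratio of 0.627. The lymphocyte ratio was 0.761 when nuclei were chosen by 31 T and NK markers that the rule did not use. It was 0.908 (0.804 to 1.03) when the limits on genes of other cell classes were dropped. Those limits removed 106 of 490 candidate nuclei in TG, or 21.6%, and 57 of 604 in WT, or 9.44%. With at most 1% mitochondrial UMIs the ratio was 0.563, and the median mitochondrial share of the lymphocytes was 1.11% in TG and 0.902% in WT.

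The lymphocytes had shallow profiles, with a median of 2692.5 UMIs and 1600.5 genes in TG and 3246 UMIs and 1716 genes in WT. Other nuclei had medians of 4015 UMIs in TG and 5594 UMIs in WT. In TG 12 lymphocytes had under 2000 UMIs, against 103 in WT, and the shallowest had 1977 UMIs in TG and 707 UMIs in WT. The TG library was deposited with exactly 15000 barcodes and the WT library with 18251. Among nuclei with at least 2000 UMIs, the lymphocyte share in TG was 0.839 times that in WT. The part of the missing shallow nuclei in the other values was not tested. In all, the lymphocytes gave 1198588 UMIs in TG and 2017105 UMIs in WT. The libraries shared 81 cell barcodes, and no barcode was a lymphocyte in both. At the lower edge of the rule, 10 nuclei in TG and 9 in WT had exactly 5 UMIs of the 7 genes. Just outside it, 6 nuclei in TG and 8 in WT had 4 UMIs with the share of 0.15% met.

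Markers that the rule did not use fitted the label of T and NK lymphocytes. PTPRC, the pan-leukocyte phosphatase CD45, had a UMI in 98.4% of the lymphocytes in TG and in 99.3% in WT, against 18.2% and 16.3% of other nuclei. All 16 T markers with enough UMIs lay at least 2-fold above other nuclei in both libraries, as did 13 of 14 NK markers. The exception was NCAM1, which marks human NK cells and stood at 43.1 UMIs per 1000000 nuclear-encoded UMIs (CPM) in TG lymphocytes and 25.05 CPM in WT lymphocytes, below other nuclei at 214 and 354 CPM. CD3G had 0 UMIs in TG lymphocytes, which allows up to 0.956% of nuclei with a UMI, and 1 UMI in WT lymphocytes. Among 9859 genes with at least 30 UMIs in the lymphocytes, 2398 (24.3%) were at least 2-fold above other nuclei in both libraries, and since the nuclei were chosen by their transcripts this describes them and tests nothing.

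The genes furthest above other nuclei were those of T and NK cells. After KLRK1, the activating receptor NKG2D, and STAT4, which relays interleukin 12 and which the rule also used, came CRTAM, a receptor of activated killer cells, at 52.4 CPM in TG and 62.6 CPM in WT. IL12RB2, the signalling chain of the interleukin 12 receptor, stood 147-fold above other nuclei in TG and 148-fold in WT. TBX21, the transcription factor of type 1 lymphocytes, stood at 251 CPM in TG and 189 CPM in WT, against 1.74 and 0.706 CPM in other nuclei. RUNX3, the factor that sets the cytotoxic lineage, had 227 CPM in TG and 173 CPM in WT. The 24 leading genes also held the receptors KLRD1, KLRG1, NCR1 and CD226, the T cell surface proteins CD3D and CD6, the T lineage factor BCL11B, the phosphatase PTPN22 and the killing genes GZMA, GZMH and PRF1. The remaining leading genes were SCML4 and IKZF3, both in the rule, and GPR37, TXK, SAMD3, UBASH3A and GPR174.

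TG and WT differed in the balance of T and NK genes. A nucleus was called a T-gene nucleus when it held at least 2 UMIs of CAMK4 and CD3E and none of GNLY and KLRK1, and an NK-gene nucleus in the reverse case. CAMK4 is a calcium-dependent kinase of T cells and CD3E a signalling chain of the T cell receptor. TG had 98 NK-gene nuclei and 48 T-gene nuclei, and WT had 35 NK-gene nuclei and 137 T-gene nuclei. NK-gene nuclei were thus 67.1% of the 146 called nuclei in TG (58.9 to 74.7) and 20.3% of the 172 in WT (14.6 to 27.1), a difference of 46.8 percentage points. Most other lymphocytes held UMIs of both pairs, 187 nuclei or 48.7% in TG and 278 nuclei or 50.8% in WT. CAMK4, GNLY and KLRK1 also stood in the lymphocyte rule, so some nuclei entered the set through genes of the call. Without GNLY and KLRK1 the rule kept 343 nuclei in TG and 539 in WT, and without CAMK4 375 and 539. Among nuclei chosen by the markers outside the rule, NK-gene nuclei were 64.4% of called nuclei in TG and 20.0% in WT.

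**Figure D1:**
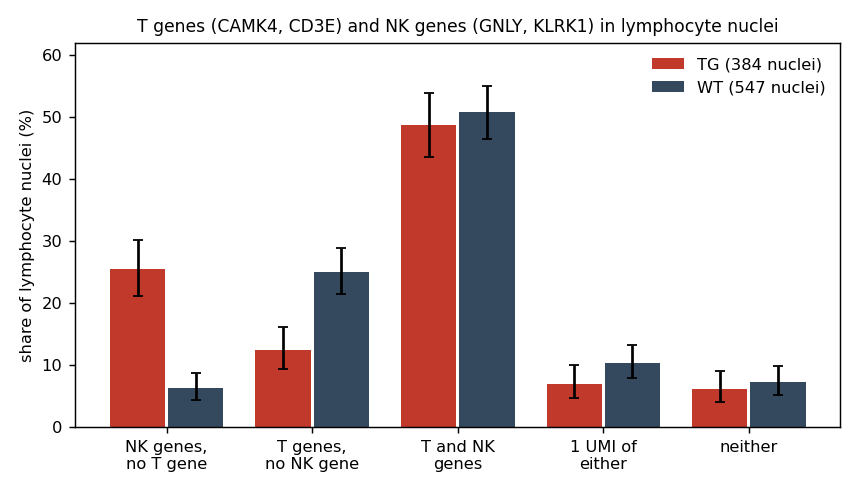
Share of lymphocyte nuclei (percent, y axis) in each class of T and NK gene content, for TG (384 nuclei, left bars) and WT (547 nuclei, right bars), with 95% Clopper-Pearson intervals. NK-gene nuclei were 25.5% in TG and 6.40% in WT, T-gene nuclei 12.5% in TG and 25.05% in WT, and nuclei with both sets of genes 48.7% in TG and 50.8% in WT.

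The direction held in each call tried, and the size depended on the genes used. Every call kept CAMK4 or GNLY, the call genes that differed most between TG and WT, and none left out both. When GNLY was left out of the call, NK-gene nuclei were 50.0% of called nuclei in TG and 16.9% in WT. When CD3E, CD3D and CD3G were set against GNLY, KLRK1 and KLRD1, they were 80.0% in TG and 47.7% in WT. With every lymphocyte thinned to 2000 UMIs the difference was 50.9 points. UMIs of GNLY were also more frequent outside the lymphocytes in TG, in 11.3% of other nuclei against 1.43% in WT, and in 7.66% of macrophage-gated nuclei against 1.40% in WT, at median depths of 2960 and 4251 UMIs. The part of such stray GNLY UMIs in the call was not tested beyond the call without GNLY.

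GNLY encodes granulysin, a membrane-lysing protein of killer cell granules, and lies on chromosome 3 at 59067327 to 59072034 in Sscrofa11.1. It was the most unequal of the rule's genes, with 2951 CPM in TG lymphocytes and 691 CPM in WT lymphocytes, a ratio of 4.27 (4.01 to 4.55). A GNLY UMI was found in 58.9% of the lymphocytes in TG (53.7 to 63.8) and in 18.3% in WT (15.1 to 21.8). Among nuclei with GNLY, the median was 11 UMIs in TG and 11 UMIs in WT, and the mean was 15.5 UMIs in TG and 13.8 UMIs in WT. At least 5 GNLY UMIs were present in 43.0% of the lymphocytes in TG (37.96 to 48.1) and 13.5% in WT (10.8 to 16.7). The same was seen in 0 of 679 macrophage-gated nuclei in TG (which allows up to 0.542%) and in 0 of 1213 in WT (up to 0.304%). The macrophage gate itself limited the share of UMIs from the rule's genes, GNLY among them. A shallow nucleus with 5 GNLY UMIs could not have passed that gate. The 0 values therefore cannot show whether such amounts of GNLY are confined to lymphocytes. Thinned to 1000 UMIs, 50.8% of lymphocytes in TG and 16.8% in WT held a GNLY UMI, and those that did held a mean of 6.23 UMIs in TG and 3.83 UMIs in WT. At equal depth both the share of nuclei with GNLY and the amount in them were thus higher in TG, among lymphocytes chosen in part by GNLY. Without GNLY the rule kept 364 of the 384 nuclei in TG and 544 of the 547 in WT, so the others had entered through this gene.

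The other genes of the rule did not move as 1 block. KLRK1 was nearly level, at 715 CPM in TG and 650.2 CPM in WT (ratio 1.10, 1.01 to 1.20), and its log2 ratio was -0.00 under TMM scaling. IKZF3, a zinc finger factor of lymphocytes, was at 927 CPM in TG and 709.8 CPM in WT. STAT4 was at 564 CPM in TG and 759 CPM in WT. SKAP1, an adaptor of T cell receptor signalling, was at 1575 CPM in TG and 3707 CPM in WT, a ratio of 0.425 (0.404 to 0.447). CAMK4 was at 449 CPM in TG and 1066 CPM in WT, and SCML4 at 304 CPM in TG and 855 CPM in WT. CD3E, in contrast, was at 231 CPM in TG and 256 CPM in WT, and the ratio interval of 0.773 to 1.04 included 1.

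Over the whole table, 1142 of 9859 genes (11.6%) were at least 2-fold higher in TG lymphocytes and 456 (4.63%) at least 2-fold lower, with a median log2 ratio of 0.04. With TMM scaling the median lay 0.14 lower and the counts were 883 higher and 649 lower. Among the 2398 genes that stood 2-fold above other nuclei in both libraries, 122 (5.09%) were higher in TG and 200 (8.34%) lower, and the median was -0.16. That set held 10.7% of all genes higher in TG and 43.9% of all genes lower in TG. The list counts below are read against 11.6% and 4.63%, and list medians against 0.04 and -0.16. For lists made up mostly of genes above other nuclei, as the T and NK lists are, the counts to set beside them are 5.09% and 8.34%.

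T cell genes past 2-fold were mostly lower in TG. Of 12 measured genes of the receptor complex and co-receptors, none was 2-fold higher and 2 were 2-fold lower (median log2 -0.43). CD2, an adhesion receptor of T and NK cells, had 337 CPM in TG and 369 CPM in WT. CD3D, a chain of the receptor, had 177 CPM in TG and 223 CPM in WT. CD8A, the co-receptor of cytotoxic T cells, had 204 CPM in TG and 248 CPM in WT. The 2 lower genes were the co-stimulatory receptor CD28, at 16.05 CPM in TG and 50.6 CPM in WT, and the helper co-receptor CD4, at 37.2 CPM in TG and 89.7 CPM in WT. CD4 was seen in 28 lymphocytes in TG and in 83 in WT, a small part of either.

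Of 26 genes of T cell receptor signalling, 0 were 2-fold higher and 3, or 11.5%, were 2-fold lower, with a median of -0.57. All 26 stood 2-fold above other nuclei in both libraries, and of all such genes 8.34% were lower. The 3 lower genes were SH2D1A, the adaptor SAP of SLAM receptors (42.2 CPM in TG and 193 CPM in WT), THEMIS, which sets receptor thresholds in thymocytes (163 and 490.4 CPM), and the transcription factor NFATC2 (175 and 355 CPM). Genes under a 2-fold difference included the ubiquitin ligase CBLB at 966 CPM in TG and 1841 CPM in WT and the kinase LCK at 233 CPM in TG and 303 CPM in WT. The phosphatase PTPN22 stood the other way, at 363 CPM in TG and 265 CPM in WT.

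Among 24 T lineage and memory regulators, 9 were 2-fold lower in TG, 2 were higher, and the median was -0.90. LEF1 and TCF7, factors of naive and memory T cells, were at 176 and 60.8 CPM in TG and at 478 and 169 CPM in WT. IL7R, the receptor chain for the survival cytokine interleukin 7, was at 97.1 CPM in TG and 239.9 CPM in WT. BCL11B, which keeps T cell identity, was at 121 CPM in TG and 292 CPM in WT, a ratio of 0.414 (0.342 to 0.497). The genome organiser SATB1 and the factors ETS1 and GATA3 had ratios of 0.315, 0.478 and 0.337, and TESPA1 and THEMIS of 0.445 and 0.332. TOX, a factor of chronically stimulated T cells and of NK development, was level at 1432 CPM in TG and 1419 CPM in WT. The 2 higher genes were rare, ID3 with 55 UMIs in TG and 15 in WT, and FOXP3, the factor of regulatory T cells, with 21 UMIs in 11 nuclei in TG and 9 UMIs in 7 nuclei in WT.

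**Figure D2:**
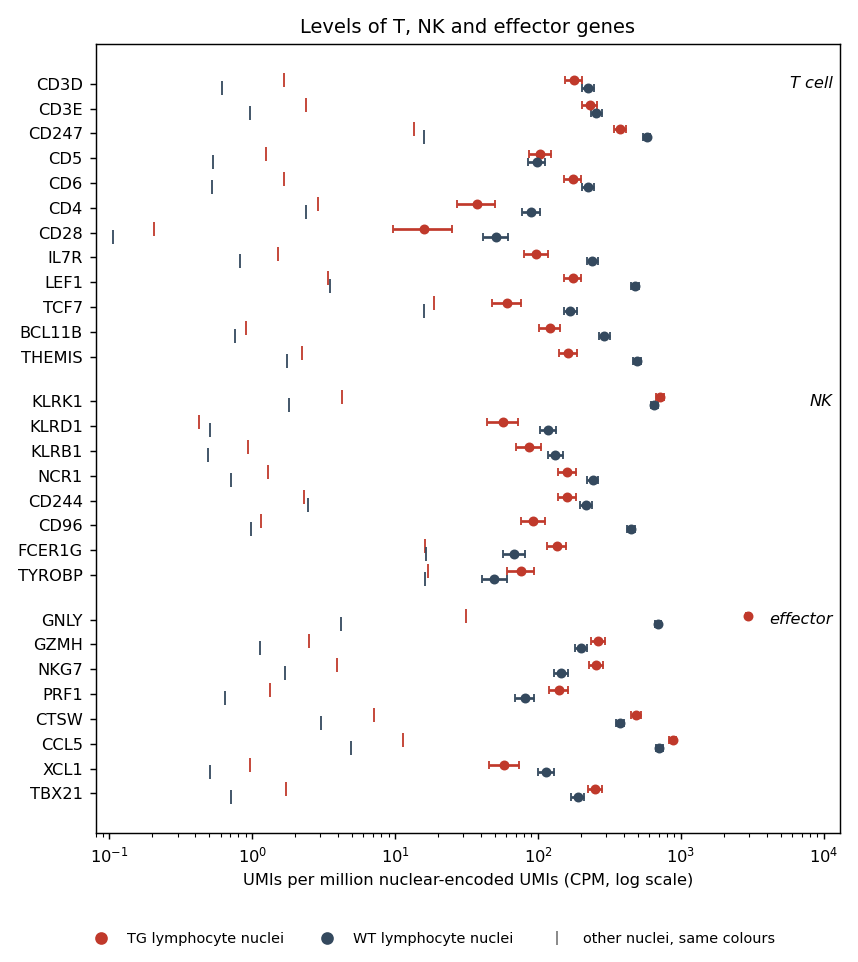
Level of T cell, NK and effector genes in CPM (x axis, log scale) in TG and WT lymphocyte nuclei (points, TG above WT, with 95% Poisson intervals) and in all other nuclei of each library (vertical ticks). Every gene shown lay above other nuclei, GNLY had the widest gap with TG higher (2951 against 691 CPM), and CD96 the widest with TG lower (92.1 against 449.8 CPM).

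Some of these differences were smaller within a class of nuclei. Within T-gene nuclei alone, the median of the receptor complex was -0.08 and none of its 11 measured genes passed 2-fold. That list includes CD3E, which was part of the call. CD5 and CD6, which damp receptor signals, were there at 303 and 402 CPM in TG and 180 and 257 CPM in WT. The median of lineage and memory regulators in T-gene nuclei was -0.67, with 2 of 22 genes 2-fold lower, and the median of receptor signalling was -0.54. LEF1 was at 656 CPM in TG T-gene nuclei and 1102 CPM in WT T-gene nuclei, and BCL11B at 210.5 and 486 CPM. FOXP3 had 12 UMIs in the 48 TG T-gene nuclei and 2 UMIs in the 137 WT T-gene nuclei. IL2RA, the interleukin 2 receptor chain of regulatory and activated T cells, was at 217 CPM in TG T-gene nuclei and 72.9 CPM in WT T-gene nuclei, and 1 TG nucleus held 24 of its 50 UMIs in TG lymphocytes. Over all measured genes the median was -0.07 in T-gene nuclei and -0.05 in NK-gene nuclei. When a library-wide profile was taken off for free RNA, which removed 60.8% of the lymphocyte UMIs in TG and 28.6% in WT, the medians were 0.41 for the receptor complex, 0.20 for receptor signalling and -0.29 for lineage and memory regulators. The larger share removed in TG raises the TG over WT ratio of genes little present in that profile by scaling alone. The part of this scaling in the values with the profile taken off, here and below, was not tested.

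Of 13 measured NK receptors, none was 2-fold higher and 4 were 2-fold lower, and the median was -0.59, or 0.26 with that profile taken off. CD96, a receptor for nectin-like ligands on T and NK cells, lies on chromosome 13 at 148103424 to 148192272 and had 92.1 CPM in TG and 449.8 CPM in WT, a ratio of 0.205 (0.166 to 0.250). SLAMF7, a receptor of the SLAM family, had 11.8 CPM in TG and 81.1 CPM in WT, TIGIT 9.29 CPM in TG and 24.04 CPM in WT, and KLRD1, the CD94 partner of NKG2 receptors, 56.6 CPM in TG and 117 CPM in WT. NCR1, the receptor NKp46, had 160.5 CPM in TG and 241 CPM in WT. The signalling adaptors pointed the other way, FCER1G with 135 CPM in TG and 68.1 CPM in WT and TYROBP with 76.0 CPM in TG and 49.6 CPM in WT, both under 2-fold. In NK-gene nuclei the median of the list, which includes KLRK1 of the call, was -0.54, and CD96 was at 75.3 CPM in TG and 445 CPM in WT there.

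Killing genes gave a mixed picture. Of 18 measured, 3 were 2-fold higher in TG, 1 was lower, and the median was -0.16, or 0.67 with that profile taken off. The higher genes were GNLY, GZMA (219 CPM in TG and 92.2 CPM in WT) and GZMM (60.8 CPM in TG and 28.1 CPM in WT), the last 2 being granzymes, proteases of the granules. The symbol GZMA stood on 2 gene identifiers, and the one given here carried 259 of 262 UMIs in TG and 184 of 190 UMIs in WT. PRF1, which forms the pores, had 139 CPM in TG and 80.6 CPM in WT (ratio 1.73, 1.38 to 2.16), and NKG7, a granule membrane protein, 255 CPM in TG and 145 CPM in WT. Within NK-gene nuclei these were close, PRF1 at 223 CPM in TG and 239 CPM in WT, GZMA at 193 and 223 CPM, and NKG7 at 252 and 223 CPM. GNLY, which was part of that call, was at 5094 CPM in TG NK-gene nuclei and 2383 CPM in WT NK-gene nuclei. The single lower gene, TNF, had 6.76 CPM in TG and 14.0 CPM in WT, and its ratio interval reached 1.09.

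Of 14 regulators of NK and effector cells, 0 were 2-fold higher and 3 lower. EOMES, the factor of NK and memory CD8 cells, had 8 UMIs in TG and 47 UMIs in WT, ZNF683, the residency factor Hobit, 25.3 CPM in TG and 60.1 CPM in WT, and MAF 23.7 CPM in TG and 63.1 CPM in WT. ZEB2 and ZBTB16, factors of late effector and of innate-like lymphocytes, were below 2-fold on the higher side, at 1802 and 346 CPM in TG and 1013 and 178 CPM in WT.

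Genes of migration and tissue retention differed one by one. Of 14 chemokines and receptors, 4 were 2-fold lower in TG and none higher, among them CXCR6 (4.22 CPM in TG and 25.05 CPM in WT), GPR183 (60.8 and 163 CPM) and CCR2 (27.0 and 61.1 CPM). CX3CR1, the fractalkine receptor of circulating killer cells, had 163 CPM in TG and 95.7 CPM in WT, and S1PR5, which guides NK cells out of tissue, 70.1 CPM in TG and 44.6 CPM in WT, both under 2-fold. CCL5, a chemokine stored by killer cells, had 876 CPM in TG and 708 CPM in WT. Of 16 adhesion genes, only CD69, an early activation and retention marker, passed 2-fold, at 13.5 CPM in TG and 55.6 CPM in WT, and the list median was 0.22. ITGA4, a chain of the integrin VLA-4, had 1216 CPM in TG and 1515 CPM in WT, and ITGAL, a chain of LFA-1, 523 CPM in TG and 387 CPM in WT.

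**Figure D3:**
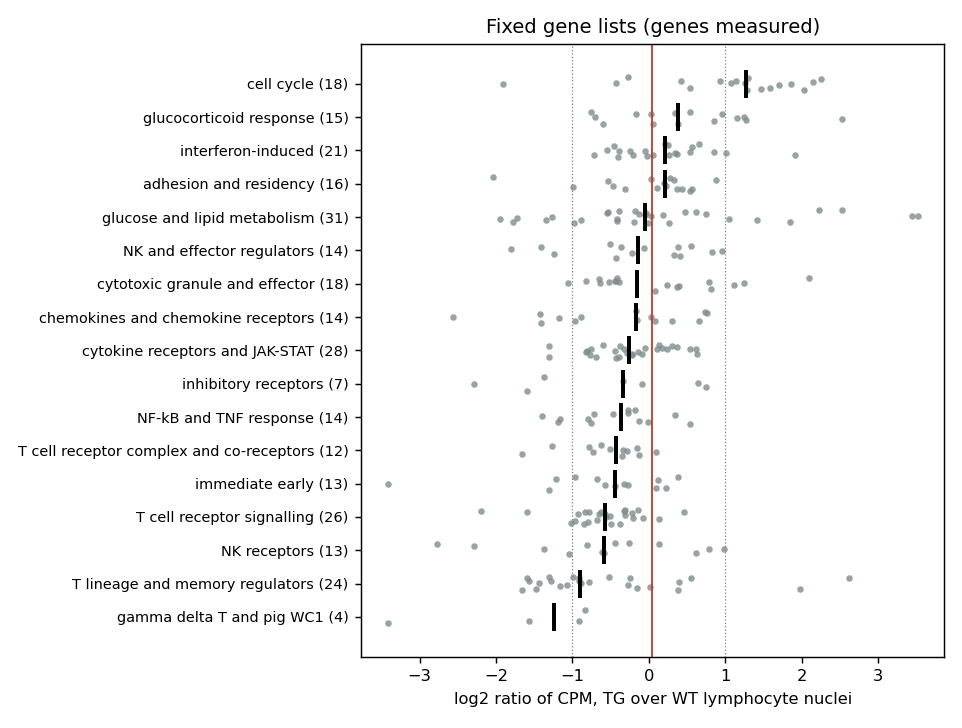
Log2 ratio of CPM between TG and WT lymphocyte nuclei (x axis) for each measured gene of 17 gene lists (grey points), with list medians (black bars), the median of all 9859 genes (red line, 0.04) and 2-fold marks (dotted lines). The cell cycle list lay furthest to the higher side (median 1.27), and T lineage and memory regulators (-0.90) and the 4 genes of the gamma delta list (-1.24) lay furthest to the lower side.

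Cell cycle genes were the list furthest to the higher side in TG, with 12 of 18 measured genes at least 2-fold higher, 1 lower and a median of 1.27. The genes concerned act at mitosis or the approach to it. CENPE, a kinetochore motor, had 119 CPM in TG and 25.05 CPM in WT, a ratio of 4.76 (3.42 to 6.70). CENPF, a kinetochore protein, had 127 CPM in TG and 31.1 CPM in WT, TOP2A, which untangles DNA, 113 CPM in TG and 31.1 CPM in WT, and the spindle protein ASPM 49.0 CPM in TG and 11.02 CPM in WT. Other nuclei held these 4 genes at 0.526 to 3.12 CPM in TG and 0.575 to 1.98 CPM in WT. None of the measured genes of DNA synthesis on the list was 2-fold higher, with PCNA, the polymerase clamp, at 80.2 CPM in TG and 108 CPM in WT, MCM6, a part of the replicative helicase, at 57.4 CPM in TG and 30.1 CPM in WT, and TYMS, which makes thymidylate, at 5.07 CPM in TG and 19.0 CPM in WT. CDK1, the kinase of mitotic entry, had 213 CPM in TG and 101 CPM in WT, and was also higher in other TG nuclei (149.9 CPM) than in other WT nuclei (40.5 CPM).

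These UMIs came from few nuclei. After thinning to 1000 UMIs, 28 of 384 lymphocytes in TG, or 7.29% (4.90 to 10.4), and 12 of 536 in WT, or 2.24% (1.16 to 3.88), held at least 5 UMIs of the list. The 28 TG nuclei held 56.0% of the thinned UMIs of the list. In macrophage-gated nuclei the same share was 0.442% in TG and 0.415% in WT. Without thinning it was 15.4% of lymphocytes in TG and 8.59% in WT, and 13.5% of all other nuclei in TG and 8.27% in WT. With a bar of 2 UMIs and no thinning it was 43.0% of lymphocytes in TG and 49.4% in WT, and after thinning 19.3% in TG and 13.2% in WT. By gene class, 3 of 48 T-gene and 9 of 98 NK-gene nuclei passed 5 UMIs after thinning in TG, and 3 of 135 and 2 of 34 in WT. Of nuclei with both gene sets, 19 of 187 passed in TG and 5 of 276 in WT. The classes were thinned apart from the whole set, so these counts do not split up the 28.

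**Figure D4:**
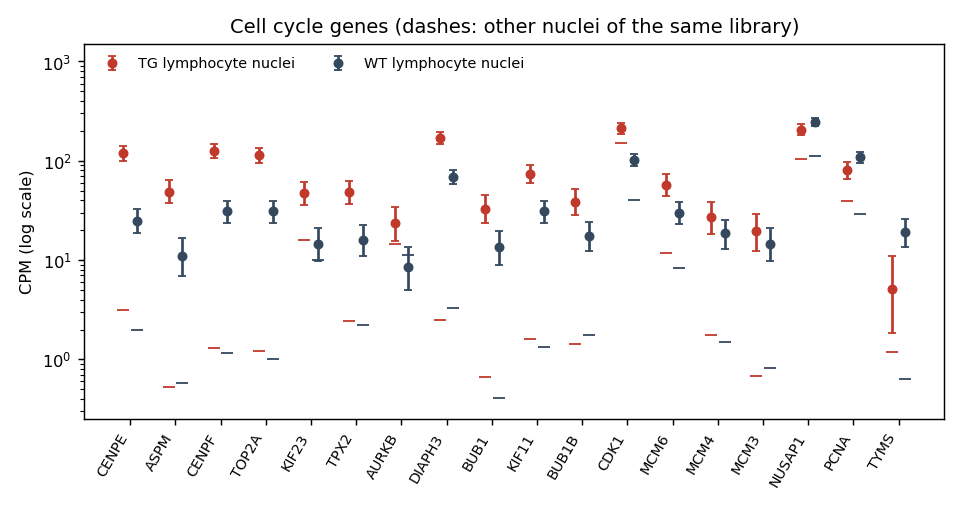
Level of the 18 measured cell cycle genes in CPM (y axis, log scale), ordered by ratio, in TG and WT lymphocyte nuclei (points, TG left of WT, with 95% Poisson intervals) and in other nuclei of the same library (dashes). CENPE, ASPM, CENPF and TOP2A stood highest in TG relative to WT, whereas NUSAP1, PCNA and TYMS stood lower in TG.

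Among signalling lists, the share of lower genes was nearest to the background for cytokine receptors. Of 28 cytokine receptor and JAK-STAT genes, 0 were 2-fold higher and 2 lower (IL7R and IL6R). IL2RB, the shared beta chain for interleukins 2 and 15, had 282 CPM in TG and 495 CPM in WT, and IL4R 292 CPM in TG and 188 CPM in WT. Of 7 inhibitory receptors 3 were lower, CD200R1 and, already counted among the NK receptors, CD96 and TIGIT. PDCD1, the receptor PD-1, had 16.05 CPM in TG and 17.0 CPM in WT. Of 13 immediate early genes 3 were lower (ATF3, NR4A1 and DUSP2) and none higher, and ATF3 was also lower in other TG nuclei, at 6.34 CPM, than in other WT nuclei, at 45.3 CPM. Of 14 NF-kB and TNF response genes 3 were lower, led in abundance by TNFAIP8, with 492 CPM in TG and 1104 CPM in WT. Of 4 measured genes of the gamma delta T list, GATA3 and RHEX were lower.

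Interferon, glucocorticoid and metabolic genes that were 2-fold higher in TG lymphocytes were higher in other TG nuclei as well, except KLF9, PPARA and PPARGC1A, which were lower there. Of 21 interferon-induced genes 2 were 2-fold higher and 0 lower. IFI6 had 101 CPM in TG and 26.5 CPM in WT, with 92.6 CPM in other TG nuclei and 12.6 CPM in other WT nuclei. Of 15 glucocorticoid response genes 4 were higher and 0 lower, PDK4, SGK1, KLF9 and TXNIP. PDK4, which holds back glucose oxidation, had 87.0 CPM in TG and 15.0 CPM in WT, with 316 CPM in other TG nuclei and 61.2 CPM in other WT nuclei. FKBP5, a co-chaperone of the glucocorticoid receptor, had 899.6 CPM in TG and 711 CPM in WT. Of 31 glucose and lipid genes 7 were higher and 5 lower, with a median of -0.05. FABP5, a fatty acid carrier, had 231 CPM in TG and 20.0 CPM in WT, and CD36, a fatty acid transporter, 582 CPM in TG and 124 CPM in WT. Other nuclei held FABP5 at 354 CPM in TG and 86.1 CPM in WT, and CD36 at 1781 CPM in TG and 1328 CPM in WT. CPT1A, which brings fatty acids into mitochondria, had 101 CPM in TG and 37.6 CPM in WT lymphocytes, above other nuclei in both (45.6 and 21.6 CPM). PDK1, PFKP, ABCG1, MYC and SREBF1 were the 5 lower genes.

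Genes of most other heart cell types, smooth muscle apart, summed to higher levels in TG lymphocytes. Of 9 cardiomyocyte markers 5 were 2-fold higher, and their summed level was 9693 CPM in TG and 3518 CPM in WT lymphocytes, against 23190 and 27176 CPM in other nuclei. MYH7, the main ventricular myosin, had 4194 CPM in TG and 1217 CPM in WT lymphocytes. Of 8 endothelial markers 6 were higher (summed 470.5 CPM in TG and 246 CPM in WT), of 8 fibroblast markers 4 (1806 and 582 CPM), of 5 lymphatic markers 5 (199 and 59.1 CPM) and of 7 macrophage markers 2 (157 and 107 CPM). Of 3 smooth muscle markers 1 was higher and 1 lower, and the list summed to 89.5 CPM in TG and 155 CPM in WT. The 8 B cell markers of the list, 3 of them measured, summed to 582 CPM in TG and 482 CPM in WT, below other nuclei. The part of these transcripts in the genes higher in TG, IFI6, PDK4, FABP5 and CD36 among them, was not tested gene by gene.

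Several of the 12 genes named for the largest higher ratios had most of their UMIs in 1 nucleus. Of the UMIs in TG lymphocytes, 64 of 67 of KIAA1549L, 105 of 116 of NELL1, 52 of 71 of ADAMTS19 and 56 of 103 of SLCO6A1 came from a single nucleus. Without that nucleus the log2 ratio of KIAA1549L was -0.25 and that of NELL1 0.63. Without the top nucleus of each library, SLCO6A1 was at 39.7 CPM in TG and 0.501 CPM in WT. ADAMTS19 was then at 16.05 CPM in TG and 0 UMIs in WT, at least 10.7-fold higher against a floor of 3 UMIs. These 2 genes thus remained higher in TG, but SLCO6A1 had a UMI in only 5 TG lymphocytes and ADAMTS19 in 16. Other nuclei were also higher in TG, with SLCO6A1 at 50.5 CPM in TG and 8.68 CPM in WT. ADAMTS19 was there at 57.9 CPM in TG and 7.86 CPM in WT. DLG2, a scaffold protein of synapses, was spread over nuclei, with a UMI in 181 lymphocytes in TG and 47 in WT and levels of 827 CPM in TG and 88.2 CPM in WT, a ratio of 9.38 (7.98 to 11.08). It lies on chromosome 9 at 17575991 to 19547417, and other nuclei held it at 225 CPM in TG and 287 CPM in WT. In macrophage-gated nuclei at least 5 DLG2 UMIs were seen in 3.83% in TG and 1.65% in WT, against 21.6% of lymphocytes in TG and 2.19% in WT. Also among the 12 were GNLY, DHRS4, HMCN2, PCDH9, COL5A3 and TCAP, a sarcomere protein with 706 CPM in TG and 176 CPM in WT lymphocytes and 618 and 418 CPM in other nuclei. In macrophage-gated nuclei TCAP was likewise higher in TG (640 CPM) than in WT (132 CPM). So were DHRS4 (68.0 and 13.8 CPM), HMCN2 (50.1 and 9.79 CPM), COL5A3 (34.7 and 8.70 CPM) and GNLY (26.1 and 3.26 CPM). PCDH9 was lower there in TG (18.4 and 36.8 CPM).

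The 12 genes named for the largest lower ratios had been kept only if WT lymphocytes held them at no less than other WT nuclei. THSD7B, a protein with thrombospondin domains encoded on chromosome 15 at 14088995 to 15610635, had 229.8 CPM in TG and 1227 CPM in WT (ratio 0.187, 0.165 to 0.212), and other nuclei held it at 11.08 CPM in TG and 4.88 CPM in WT. A THSD7B UMI was seen in 29.9% of lymphocytes in TG and 71.3% in WT, and 5 or more in 3.91% in TG and 35.3% in WT. PRKCA, a classical protein kinase C, had 147 CPM in TG and 683 CPM in WT, and MAN1C1, a Golgi mannosidase, 68.4 CPM in TG and 321 CPM in WT. PLXNC1, a semaphorin receptor, had 67.6 CPM in TG and 269 CPM in WT, and CASS4, an adhesion adaptor, 33.8 CPM in TG and 150.3 CPM in WT. Macrophage-gated nuclei held PLXNC1 at 419 CPM in TG and 362 CPM in WT, and CASS4 at 76.6 CPM in TG and 132 CPM in WT. JAML, an adhesion molecule of gamma delta T cells and granulocytes, had 9.29 CPM in TG and 51.6 CPM in WT. UNC5C, with 29.6 CPM in TG and 162 CPM in WT, was instead higher in other TG nuclei (181 CPM) than in other WT nuclei (75.6 CPM). In macrophage-gated nuclei UNC5C was lower in TG (165 CPM) than in WT (408 CPM). So were PRKCA (47.9 and 140 CPM), JAML (21.8 and 45.7 CPM) and FAM102A (7.70 and 20.1 CPM). THSD7B (10.3 and 3.44 CPM) and MAN1C1 (33.4 and 19.6 CPM) were higher there in TG. CD96, SLAMF7, SH2D1A and CDH4 had 4.28 CPM or less there. CD96, SLAMF7, SH2D1A, CDH4 and FAM102A completed the 12.

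The contrast of NK-gene with T-gene nuclei could be made once in each library. Of 6509 genes with at least 30 UMIs in these nuclei, 215 (3.3%) were at least 2-fold higher in NK-gene nuclei in both libraries and 216 (3.32%) at least 2-fold lower, leaving out the 4 genes of the call. Of 13 measured NK markers outside the rule, 10 were higher and 0 lower. Of 15 T markers, 8 were lower and 0 higher. The nuclei were chosen by transcripts that vary with these, so the counts describe the classes.

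The 12 genes named for higher levels in NK-gene nuclei included kinases and surface receptors. SYK, the kinase that acts downstream of FCER1G and TYROBP, had 721 CPM in NK-gene and 24.8 CPM in T-gene nuclei of TG, and 775 CPM and 18.2 CPM in WT. ITGAM, the integrin chain CD11b, had 544 CPM against 12.4 CPM in TG and 437 CPM against 29.1 CPM in WT. Macrophage-gated nuclei held ITGAM at 565 CPM in TG and 385 CPM in WT, and SYK at 300.3 CPM in TG and 307 CPM in WT. RSPO2, a secreted enhancer of Wnt signals, had 82 UMIs in NK-gene and 0 UMIs in T-gene nuclei of TG, and 17 UMIs and 0 UMIs in WT, so that it was at least 14.5-fold higher in TG and at least 25.7-fold higher in WT against a floor of 3 UMIs. PLCG2, TEC, FGR and CLNK, signalling proteins of innate lymphoid and myeloid cells, were among the 12 named, as were PTAFR, PDGFB and LY6D. Macrophage-gated nuclei held PLCG2 at 189 CPM in TG and 206 CPM in WT, and PDGFB at 131 CPM in TG and 228 CPM in WT. The chemokine XCL1, which attracts cross-presenting dendritic cells, had 91.7 CPM in NK-gene and 6.19 CPM in T-gene nuclei of TG and 437 CPM and 29.1 CPM in WT. CCL4, a chemokine of activated killer cells, had 105 CPM against 12.4 CPM in TG and 454 CPM against 9.11 CPM in WT.

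The 12 genes named for lower levels in NK-gene nuclei included 5 T cell genes described above, IL7R, LEF1, TCF7, CD4 and CD28. IL7R had 9.83 CPM in NK-gene and 365 CPM in T-gene nuclei of TG, and 0 UMIs in NK-gene nuclei and 528 CPM in T-gene nuclei of WT. LEF1 had 49.1 CPM in NK-gene and 656 CPM in T-gene nuclei of TG, and 99.0 CPM and 1102 CPM in WT. IL1RL1, the receptor for the alarmin interleukin 33, had 6.55 CPM against 155 CPM in TG and 0 UMIs against 228 CPM in WT. KCNA3, the potassium channel Kv1.3 of T cells, had 3.28 CPM against 105 CPM in TG and 33.0 CPM against 235 CPM in WT. The others of the 12 were IL6R, PDK1, EVL, TMEM123 and SPOCK2.

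The classes were not clean T and NK cells. CD3D was at 124 CPM in NK-gene and 204 CPM in T-gene nuclei of TG, and at 206 CPM and 224 CPM in WT. CD2, CD8A and LCK also stood within 2-fold between the classes in at least 1 library. Since T and NK cells share much of their programme, the levels of CD2, CD8A and LCK alone cannot tell mixed classes from clean ones. CD6 was far lower in NK-gene nuclei of TG (26.2 against 402 CPM) and under 2-fold lower in WT (181 against 257 CPM), and CD5 was at 9.83 against 303 CPM in TG and 57.7 against 180 CPM in WT.

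**Figure D5:**
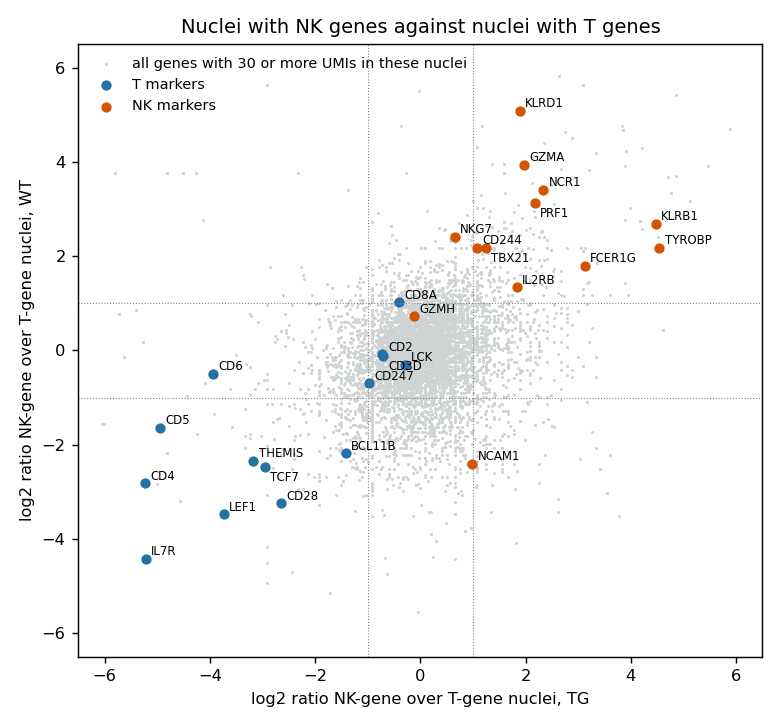
Log2 ratio of NK-gene over T-gene nuclei in TG (x axis) and in WT (y axis) for 6509 genes (grey), with most T markers (blue) and NK markers (orange) outside the rule, where a gene with 0 UMIs in a class is set at the floor of 3 UMIs. KLRB1, TYROBP, NCR1 and PRF1 lie to the upper right, IL7R, CD4, LEF1 and CD28 to the lower left, and CD3D, CD2, LCK and CD8A near the centre.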

How the data were processed

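The authors deposited UMI counts per gene and nucleus, 1 matrix per library with 31908 genes, of which 16498 carry a symbol in the files. The genome build Sscrofa11.1 and the tools Cell Ranger 3.1.0 and Seurat 3.1.1 are named, with no role, per the submitters' processing notes. Cell Ranger 5.0.0 stands in the matrices instead, per the file headers, and this mismatch was not resolved. Coordinates are those of RefSeq genes on Sscrofa11.1, matched by symbol.

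Barcodes with under 500 detected genes, or with over 5% mitochondrial UMIs (13 genes), were dropped, which left 31664 of 33251, 14939 of 15000 in TG and 16725 of 18251 in WT. Doublets were handled by the limits on genes of other classes alone, and no doublet caller was run. Macrophage-gated nuclei, a set that should lack lymphocyte genes, passed the same limits for the other classes. They also had to stay under a limit on the share of UMIs from the lymphocyte rule's genes.

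Counts of the lymphocytes were summed per library and given per 1000000 nuclear-encoded UMIs (CPM). Levels carry exact Poisson, shares Clopper-Pearson and ratios conditional binomial intervals at 95%, with a floor of 3 UMIs in place of 0 (Python 3.11.15, numpy 2.4.6, scipy 1.17.1, pandas 2.3.3). UMIs of 1 nucleus are not independent, so these intervals are too narrow for differences between animals. A gene counted as measured with at least 30 UMIs over both libraries and as higher or lower at 2-fold. TMM factors came from edgeR 4.0.16 in R 4.3.3. The calculation was tested on simulated data.

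The lymphocyte rule, the 17 function lists and the marker lists were chosen with earlier results of these data known. Named genes had a symbol and at least 50 CPM. They were the 24 furthest above other nuclei, the 12 highest and 12 lowest in TG by at least 2-fold and, in the library where the gene was higher, not below other nuclei of that library, and the 12 on each side of the NK-gene and T-gene contrast, with the genes of the rule and the most abundant and most different genes of each list. In the list paragraphs some further genes were chosen after their values were seen. Single values of a few genes of the lists are not reported here, and counts and medians of lists include them.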

Additional observations from a re-analysis of the deposited data

Results flagged for a closer look

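Nuclei that met the UMI part of the lymphocyte rule but carried more than the allowed share of another class's genes stood outside the comparisons above. They were 106 of 490 such nuclei in TG, or 21.6% (18.1 to 25.5), and 57 of 604 in WT, or 9.44% (7.23 to 12.1). The limit on endothelial genes was passed by 47 of them in TG and 15 in WT, that on cardiomyocyte genes by 36 and 26, that on macrophage genes by 18 and 12, and that on fibroblast genes by 6 and 4. Whether they are doublets, nuclei with free RNA or another kind of nucleus was not tested.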

How the results depend on the processing

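No paired analysis was possible because each genotype had 1 library. The share of lymphocytes in TG relative to WT was 0.908 without limits on other classes and 0.563 with at most 1% mitochondrial UMIs, against 0.786. The difference in NK-gene share was 54.3 points with a call at 3 UMIs, 32.3 with CD3E, CD3D and CD3G against GNLY, KLRK1 and KLRD1, 33.1 without GNLY, and 19.1 with all lymphocytes as the denominator. Genes 2-fold higher and lower in TG numbered 4806 and 1079 without a filter on low counts, 420 and 201 at 100 UMIs, 122 and 200 among genes above other nuclei, and 455 and 195 in NK-gene nuclei. Higher genes numbered 556 after thinning to 1000 UMIs and 353 in T-gene nuclei. With the library-wide profile taken off, 956 genes were higher and 2555 lower. Of the main calls, 439 of 1142 higher and 320 of 456 lower genes were called the same way there. With the gate on markers outside the rule, 560 of the 1142 and 279 of the 456 were. Fewer genes were measured in the thinned and split settings. Genes 2-fold higher and lower in NK-gene nuclei numbered 72 and 70 at 100 UMIs, 97 and 100 after thinning, and 514 and 561 at 1.5-fold. The log2 ratio changed sign for KIAA1549L (-0.25 without its top nucleus, -0.91 without nuclei with 2 or more cell cycle UMIs), for PCDH9 (-0.33) with the gate on other markers, for STAT4 (0.42) and CD3E (0.69) with the profile taken off, for CD3E (0.47) in nuclei with both gene sets, for KLRK1 under TMM scaling (-0.0040), in NK-gene nuclei (-0.46) and in nuclei with both (-0.13), and for IKZF3 in NK-gene nuclei (-0.0822). The cause was not tested. The settings without GNLY, without the top nucleus, without cell cycle nuclei, with other markers, with nuclei of both gene sets and with genes above other nuclei were chosen after seeing the data. The cell cycle median was -0.47 without nuclei holding 2 or more of its UMIs, by construction. Taking off the profile also turned the medians of NK regulators (0.44), chemokines (0.30), cytokine receptors (0.13), metabolism (0.35) and interferon genes (-0.37), and thinning those of killing genes (0.19) and chemokines (0.42). With 48 T-gene nuclei in TG and 35 NK-gene nuclei in WT, most single genes were too shallow for a ratio within a class.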
